A study of Mus musculus with 6 samples.

Results

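A set of 8 genes that make or regulate sterols was followed in calf muscle (gastrocnemius) taken from male mice that were young or aged. They were Insig1, a sterol-responsive membrane protein of the endoplasmic reticulum; Srebf2, which encodes the transcription factor SREBP2; and Hmgcs1, Idi1, Fdps, Sqle, Lss and Cyp51, which encode 6 enzymes of the pathway. Every probe set that the platform's gene table assigns to exactly 1 of these symbols was taken, which gave 19 probe sets for 8 genes among 18193 named genes in all. Total muscle RNA was read on 6 Affymetrix mouse arrays, 3 of young mice (replicates 1, 2 and 3) and 3 of aged mice (replicates 51, 52 and 53), all of the strain labelled C57B1/6 with a normal karyotype. No allele or treatment is named for either group, and the labels used here state no ages. The labels tie the 3 arrays of a group to 1 common sample record and do not name separate animals, so each p-value measures only the spread between these arrays, which may be technical.

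Cells make cholesterol from acetyl-CoA through mevalonate, isoprenoid diphosphates, squalene and lanosterol. When membrane sterol is low, SCAP carries SREBP2 to the Golgi, where proteases release the part that enters the nucleus and switches on the genes of the pathway and of lipoprotein uptake. INSIG proteins hold SCAP in the endoplasmic reticulum when sterol is high, and Insig1 is itself an SREBP target, so its transcript is often read beside those of the enzymes. Skeletal muscle makes part of its own cholesterol and also takes up lipoproteins. The comparison asked whether the synthesis genes followed Insig1 between young and aged muscle.

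Promoter windows from RefSeq (build GRCm38.p6), reaching from 250 bases before to 50 bases after the annotated start, matched 6 of the 8 genes. The names with no window were Sqle and Fdps. Each window was searched on both strands for CACNCCAC, the core of a sterol regulatory element, for CCAAT, which NF-Y binds, and for CACGTG, an E-box. The core was in the windows of Insig1 and Hmgcs1, 2 of 6, against 6.24% of all 32851 windows. CCAAT was in 6 of 6 against 37.4%, and CACGTG was in the Insig1 window alone among the 6 against 7.15%. No match overlapped another motif in the 2 windows below, which are shown because both hold the sterol element core while the signals of their genes are compared in what follows. Capitals mark every match, read on the strand printed, so a match on the other strand appears as its reverse complement.
Insig1 promoter, chr5:28071162-28071461, plus strand: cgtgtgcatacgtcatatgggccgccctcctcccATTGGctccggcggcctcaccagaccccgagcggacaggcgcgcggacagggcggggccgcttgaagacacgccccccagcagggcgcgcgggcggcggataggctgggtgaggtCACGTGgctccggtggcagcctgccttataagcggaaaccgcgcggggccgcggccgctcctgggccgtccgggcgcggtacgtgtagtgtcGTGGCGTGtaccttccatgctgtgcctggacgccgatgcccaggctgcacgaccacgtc
Hmgcs1 promoter, chr13:119690101-119690400, plus strand: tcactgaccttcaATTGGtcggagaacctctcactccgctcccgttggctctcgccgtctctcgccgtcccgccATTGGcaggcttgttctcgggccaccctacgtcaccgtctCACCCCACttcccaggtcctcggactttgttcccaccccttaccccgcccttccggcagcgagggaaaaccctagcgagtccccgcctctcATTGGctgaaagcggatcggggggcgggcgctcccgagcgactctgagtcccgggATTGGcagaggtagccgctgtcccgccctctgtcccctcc
The Insig1 core starts 9 bases before the annotated start on the reverse strand, and the Hmgcs1 core starts 136 bases before it on the forward strand. A match describes letters in the window and is no measure of binding.

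Signals are the deposited intensities on the log2 scale, and a change is the mean of the aged arrays minus the mean of the young arrays. Groups are given as mean ± SD over 3 arrays, and changes with limma's standard error. The deposited values give 1 intensity per probe set, and the number of arrays limits the precision. A probe set was tested if its mean log2 signal over the arrays was at least 9.08, the median of all probe sets, which kept 13 of the 19, with at least 1 for each of the 8 genes. Where a gene had several, the brightest one stands for it. Median signals of the arrays lay between 635 and 832. The muscle markers Acta1, Ckm, Myh4 and the other 7 on a list of 10 were all bright. Their summed log2 signal was 21.4 to 21.7 on young and 21.0 to 21.3 on aged arrays. All 10 had a negative change and 0 passed limma's test, beside 1.39% of all genes. An unadjusted p under 0.05 was reached by 7 of the 10, beside 10.0% of all tested probe sets. On 7 of the 10 every aged array lay below every young one, where 16.2% of all tested probe sets separated in either direction. By the scanner records, 2 fluidics stations were used: aged replicates 52 and 53 ran on the second, and every other array on the first.

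Insig1 was higher in aged muscle, and it was the only one of the 8 genes that passed the test. Its log2 signal was 11.61, 11.09 and 12.48 on young replicates 1, 2 and 3 and 13.17, 13.83 and 13.80 on aged replicates 51, 52 and 53. Every aged array lay above every young array, a separation in that direction that 7.41% of tested probe sets showed, with young replicate 3 the nearest to the aged group and young replicate 2 the lowest. The means were 11.73 ± 0.70 (SD, n = 3) in young and 13.60 ± 0.37 (SD, n = 3) in aged muscle, a change of 1.87 ± 0.35 or 3.66-fold (limma adjusted p = 0.0235, 95% interval 1.10 to 2.64). Among all 22519 probe sets tested, 1.05% passed in either direction and 0.311% were called higher, and of 11763 genes with 1 probe set each 1.39% passed. The change of Insig1 was exceeded by 1.78% of tested probe sets. The call was lost without young replicate 1 (1.81, limma adjusted p = 0.107), young replicate 2 (1.55, adjusted p = 0.116), aged replicate 52 (1.76, adjusted p = 0.134) or aged replicate 53 (1.77, adjusted p = 0.0567), after median centring (1.75, adjusted p = 0.0773), and without a trend of the spread with brightness (1.87, adjusted p = 0.377). Within the first station the change was 1.44 (adjusted p = 0.227, with 1 aged array), and with RNA quality as a covariate, read as the control probes' 3 prime over 5 prime ratio, it was 1.71 (adjusted p = 0.227). That ratio was 1.71 to 1.77 on the log2 scale on the young arrays and 2.00 to 2.86 on the aged arrays, so it was higher on every aged array. The summed log2 signal of the adipocyte markers was also higher on every aged array, at 16.2 to 16.4 in young and 17.2 to 18.0 in aged muscle. Fabp4, at 16.0 to 16.2 in young and 16.8 to 17.6 in aged muscle, made up most of that sum. For 3 of the 7 tested markers every aged array lay above every young array, beside 7.41% of tested probe sets. The part of the adipocyte markers in the result was not tested. In whole muscle, more or fewer cells of a type and more or less RNA per cell cannot be told apart.

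Srebf2 itself did not pass the test. The tested probe set of Srebf2, the gene of the transcription factor itself, had log2 signals of 9.76, 10.04 and 9.33 on young replicates 1, 2 and 3 and 10.15, 8.69 and 9.37 on aged replicates 51, 52 and 53. The groups overlapped, with the highest and the lowest signal both on aged arrays. The change was -0.31 ± 0.71 (limma adjusted p = 0.907), with a 95% interval from -1.85 to 1.24, and within the first station it was 0.44. The signal lay close to the filter, and the second Srebf2 probe set was below it, at 8.78 ± 2.02 (SD, n = 3) in young and 9.36 ± 0.85 (SD, n = 3) in aged muscle. SREBP2 is regulated by proteolysis, which these arrays do not measure.

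**Figure D1:**
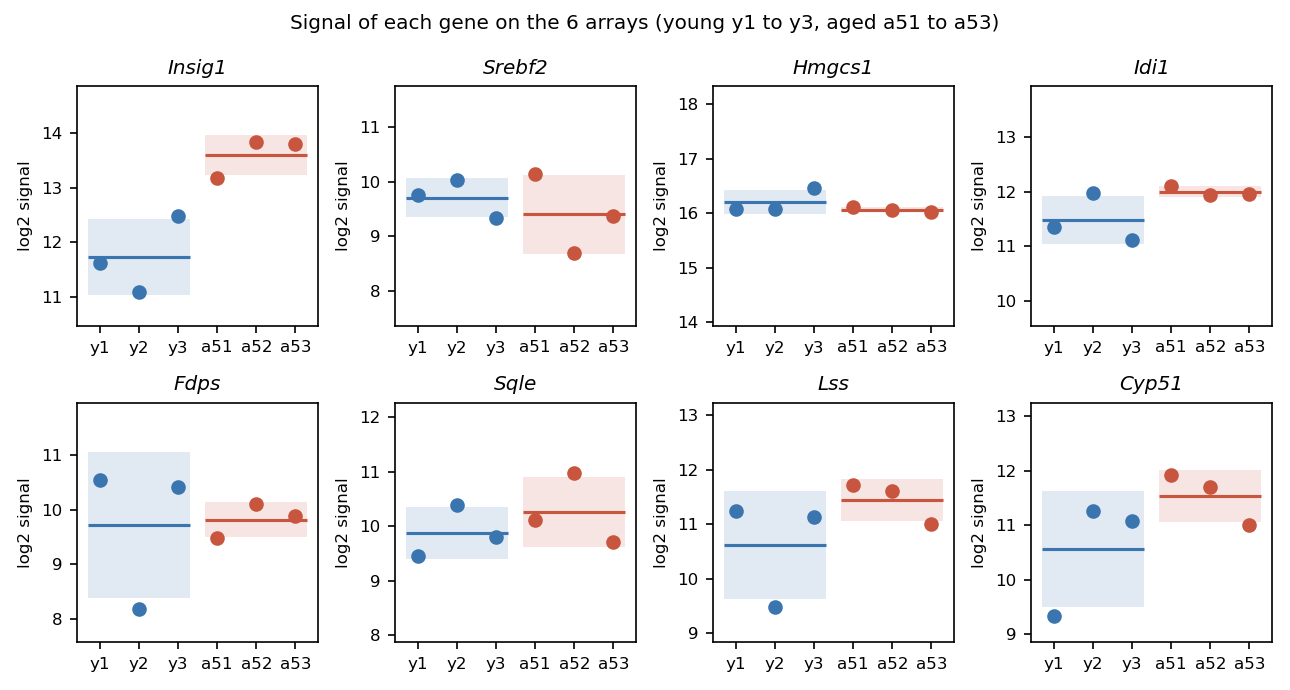
Log2 signal of the brightest probe set of each gene on the 6 arrays (y1 to y3 young, blue, and a51 to a53 aged, red), with the group mean as a line and 1 SD as a band. All panels span the same range of log2 units, and Insig1 is the gene whose aged arrays (13.17 to 13.83) all lie above its young arrays (11.09 to 12.48).

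No enzyme of the early part of the pathway passed the test. Hmgcs1, the cytosolic HMG-CoA synthase that supplies the step before mevalonate, had log2 signals of 16.08, 16.07 and 16.46 on young replicates 1, 2 and 3 and 16.11, 16.06 and 16.02 on aged replicates 51, 52 and 53. The arrays stood within a narrow band, with young replicate 3 the highest. Its change was -0.14 ± 0.20 (limma adjusted p = 0.846, 95% interval -0.58 to 0.30), the narrowest interval of the 8 genes.

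Idi1, which isomerises isopentenyl diphosphate, had log2 signals of 11.34, 11.97 and 11.11 on young replicates 1, 2 and 3 and 12.11, 11.94 and 11.95 on aged replicates 51, 52 and 53. Young replicate 2 reached into the aged range, and the other young arrays lay below it. The change was 0.52 ± 0.32 (limma adjusted p = 0.619, 95% interval -0.18 to 1.22). Fdps, which builds farnesyl diphosphate, had log2 signals of 10.55, 8.17 and 10.43 on young replicates 1, 2 and 3 and 9.48, 10.10 and 9.89 on aged replicates 51, 52 and 53. Young replicate 2 was far below the rest, and the other young arrays were above all aged ones. The change of Fdps was 0.11 ± 0.74 (limma adjusted p = 0.973, 95% interval -1.50 to 1.72), and it was -0.67 without young replicate 2 (adjusted p = 0.798) and -0.24 within the first station.

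None of the enzymes from squalene onward passed the test, and the size of each change rested on single arrays. Sqle, the squalene epoxidase, had log2 signals of 9.44, 10.38 and 9.80 on young replicates 1, 2 and 3 and 10.11, 10.97 and 9.70 on aged replicates 51, 52 and 53. Aged replicate 53 was below the young mean and aged replicate 52 above every other array. The change was 0.39 ± 0.57 (limma adjusted p = 0.846, 95% interval -0.85 to 1.62), and it was 0.029 without aged replicate 52 and 0.17 without young replicate 1.

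Lss, the lanosterol synthase, had log2 signals of 11.24, 9.48 and 11.13 on young replicates 1, 2 and 3 and 11.73, 11.61 and 11.01 on aged replicates 51, 52 and 53. Young replicate 2 was low, and aged replicate 53 lay below the other young arrays. The change of Lss was 0.83 ± 0.49 (limma adjusted p = 0.604, 95% interval -0.24 to 1.91), and 0.26 without young replicate 2. Cyp51, the lanosterol demethylase, had log2 signals of 9.34, 11.26 and 11.08 on young replicates 1, 2 and 3 and 11.92, 11.70 and 11.00 on aged replicates 51, 52 and 53. Young replicate 1 was the low array here, and aged replicate 53 lay below the other young arrays. The change of Cyp51 was 0.98 ± 0.52 (limma adjusted p = 0.565, 95% interval -0.15 to 2.10), and 0.36 without young replicate 1.

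Of the 6 enzymes 0 passed limma's test, also 0 at an unadjusted p under 0.05, where 10.0% of all tested probe sets reached that p. The median of their changes was 0.45, beside 0.0079 over all tested probe sets. Changes of 5 were positive and that of Hmgcs1 was negative; after quantile normalization Hmgcs1 was at 0.056 and Fdps at -0.015, and after median centring Fdps was at -0.0097. Median centring moved the median of all tested probe sets to -0.11. On 0 of the 6 did the groups separate, and on Insig1 they did, beside 16.2% of all tested probe sets. The arrays with the low young values differed between the genes. Young replicate 2 was the lowest array for Insig1, Fdps and Lss, and was the highest young array for Sqle, Idi1, Cyp51 and Srebf2.

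**Figure D2:**
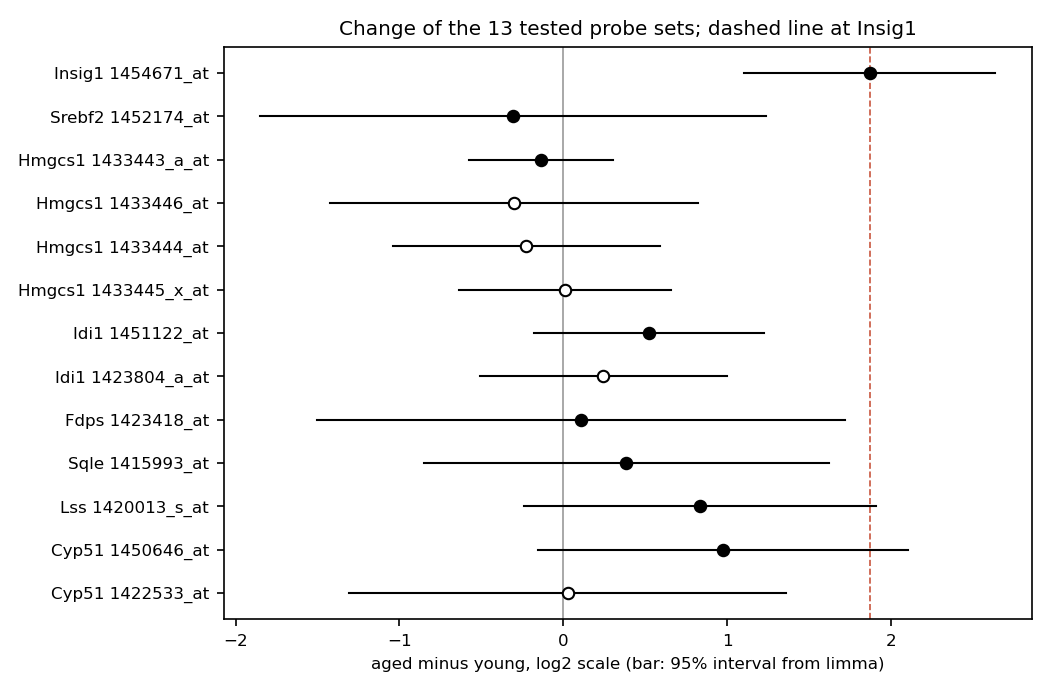
Change from young to aged muscle on the log2 scale for the 13 tested probe sets, with limma's 95% interval as a bar. Filled points are the brightest probe set of a gene and open points the others; the dashed line marks Insig1 at 1.87, the single interval here (1.10 to 2.64) that leaves out 0.

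Other probe sets of the same genes gave changes on either side of 0. The remaining 3 tested Hmgcs1 probe sets were at 0.0095, -0.23 and -0.30, the second Idi1 probe set was at 0.24 ± 0.35, and the second tested Cyp51 probe set was at 0.026 ± 0.61. For Idi1 the probe sets ranked the young arrays differently. Young replicate 2 was the highest young array on one (11.97) and the lowest on the other (10.79). In all, 9 of the 13 tested probe sets had a positive and 4 a negative change, and 1 passed.

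The 6 probe sets of these genes that were too dim to test scattered widely. The third Cyp51 probe set had log2 signals of 7.73, 7.30 and 7.54 on young replicates 1, 2 and 3 and 9.86, 8.43 and 9.73 on aged replicates 51, 52 and 53. All aged arrays were above the young ones, with a change of 1.82 (limma adjusted p = 0.737 with no filter). One Lss probe set went the other way, at 9.22, 9.88 and 9.24 on young replicates 1, 2 and 3 and 5.92, 6.11 and 8.22 on aged replicates 51, 52 and 53. Here every aged array was below the young ones, with a change of -2.69 (limma adjusted p = 0.589 with no filter), opposite in sign to the tested Lss probe set. The other dim Lss probe set was also negative, at -0.87 (limma adjusted p = 0.903 with no filter). The tested Lss probe set, alone in being positive, was among those left out in the run without probe sets prone to cross-hybridisation. The dim Fdps probe set was near 10 on young replicate 1 (9.94) and aged replicate 51 (10.33) and between 5.23 and 5.72 on the other arrays.

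**Figure D3:**
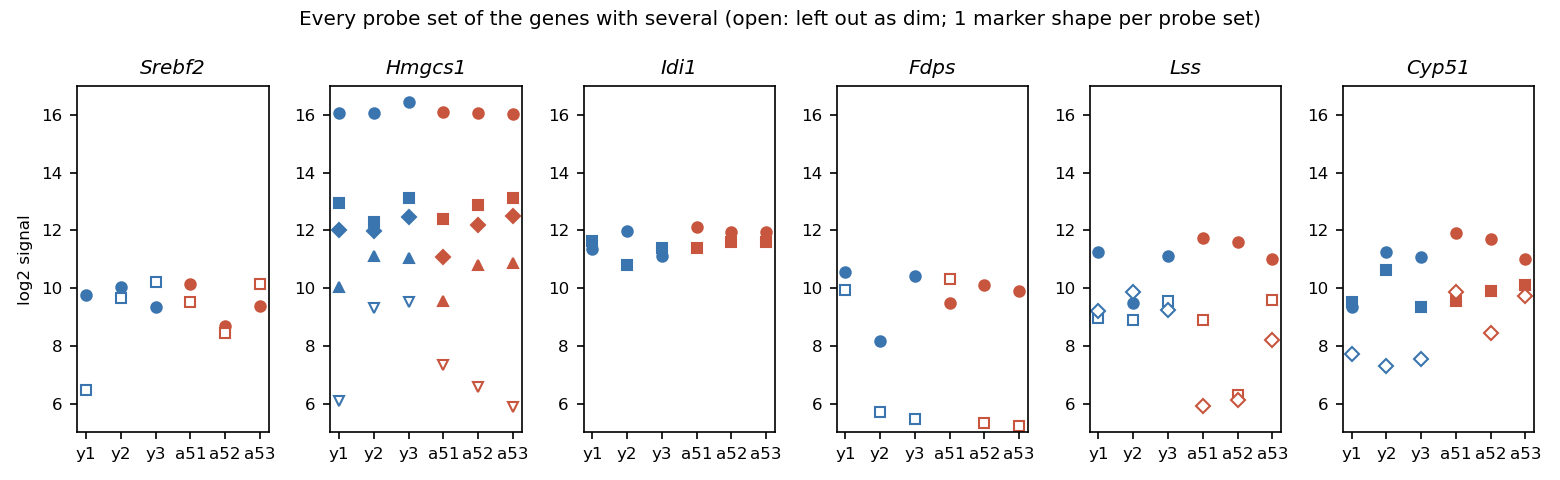
Log2 signal of every probe set of the 6 genes that have several, on young arrays y1 to y3 (blue) and aged arrays a51 to a53 (red), with 1 marker shape per probe set of a gene and open markers for those left out as dim. The open diamonds of Cyp51 rise from 7.30 to 7.73 in young to 8.43 to 9.86 in aged muscle, while the open diamonds of Lss drop from 9.22 to 9.88 to between 5.92 and 8.22.

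To ask whether an enzyme followed Insig1, the log2 signal of Insig1 was subtracted from that of the gene on each array and the difference was compared between the groups. For Hmgcs1 the change was smaller than that of Insig1: the difference of changes was -2.01 ± 0.59 (limma adjusted p = 0.00335, 95% interval -3.15 to -0.86). The other tested Hmgcs1 probe sets gave -1.86, -2.10 and -2.17. Srebf2 differed as well (-2.18 ± 1.00, limma adjusted p = 0.0498). So 2 of 7 genes differed from Insig1, where 58.4% of all probe sets did so, so the call sets neither gene apart from the rest of the array.

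The brightest probe sets of the other enzymes did not pass. It was -1.76 for Fdps (95% interval -3.58 to 0.05), -1.49 for Sqle (95% interval -3.14 to 0.17) and -1.35 for Idi1 (95% interval -2.57 to -0.13, limma adjusted p = 0.051), while the second Idi1 probe set passed at -1.63 (limma adjusted p = 0.026). By their brightest probe sets Lss and Cyp51 came nearest to Insig1, at -1.04 (95% interval -2.38 to 0.31) and -0.90 (95% interval -2.24 to 0.45). The second tested Cyp51 probe set was further off, at -1.84 (95% interval -3.61 to -0.08, limma adjusted p = 0.0647). All 7 estimates were negative, where 1.78% of all tested probe sets had a change above that of Insig1. The sign therefore sets none of the 7 apart. The intervals of Lss and of the brightest Cyp51 probe set hold both no difference from Insig1 and, in the changes above, no change. By exact two-sided permutation of the arrays the smallest possible p is 0.1, given when the groups do not overlap in the difference, as for 62.8% of all probe sets. By brightest probe set Hmgcs1, Sqle and Fdps reached it, while Idi1, Lss and Srebf2 were at 0.2 and Cyp51 at 0.5. The second tested probe sets of Idi1 and Cyp51 were at 0.1. Every difference shares the same Insig1 values, so limma pools 1 shared error. Without moderation 0 of 7 passed (Hmgcs1 adjusted p = 0.065 from limma's unmoderated linear model) and 2 of 22518 probe sets did (0.00888%), beside 49.1% at an unadjusted p under 0.05, which Hmgcs1 (0.00593) and Fdps (0.0307) also reached in that model.

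The rest of the pathway was read from gene lists. Of 17 other enzymes on the sterol branch 13 had a probe set, 9 were tested and 0 passed, with 6 positive and 3 negative changes and a median of 0.37; the unadjusted p was under 0.05 for 1 of the 9. That median was 0.003 within the first station, -0.17 with RNA quality as a covariate, 0.12 without aged replicate 51 and 0.13 without aged replicate 53. The greatest changes were those of Mvk, the mevalonate kinase (-1.23 ± 0.76), Pmvk, the phosphomevalonate kinase that follows it (0.94 ± 0.52), and Hsd17b7, which reduces a sterol ketone (0.81 ± 0.31, limma adjusted p = 0.381). Mvk was high on young arrays and aged replicate 51 (10.20 to 11.27) and low on aged replicates 52 and 53 (8.34 and 8.63), the arrays of the second station, and within the first station its change was 0.62. Within that station Pmvk was at 0.0021 and Hsd17b7 at 0.17, and the 4 tested Hsd17b7 probe sets ran from -0.81 to 1.13.

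Among dim probe sets of sterol synthesis enzymes, 3 of 11 were higher on all aged than on all young arrays, beside 6.58% of all dim probe sets, and 1 of 11 was lower, beside 3.70%. Besides those of Cyp51 and Lss these were a probe set of Msmo1, the C4 sterol demethylase (change 2.70), and that of Dhcr7, the last reductase of the pathway (change 2.03); all were named after their values were seen. The other Msmo1 probe set had a change of -1.77. With no filter 0 of the 11 passed limma's test, and 2 of all 22518 dim probe sets did (0.00888%).

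SREBP regulators did not pass either. Of 5 tested sensors and proteases 0 passed, with a median of -0.11 and 1 unadjusted p under 0.05. The sign of that median was not stable: it was 0.33 with a stricter filter, and 0.013, 0.052 and 0.005 without young replicate 1, aged replicate 51 and aged replicate 52. Srebf1, the gene of the SREBP family member that drives fatty acid synthesis, had log2 signals of 11.34, 11.55 and 10.33 on young replicates 1, 2 and 3 and 12.50, 12.03 and 12.82 on aged replicates 51, 52 and 53. The groups did not overlap, as for 7.41% of tested probe sets in that direction, and the change was 1.38 ± 0.38 (limma adjusted p = 0.157). Scap, the escort of the SREBPs, was at 0.76 ± 0.54 Mbtps1, the first of the cleaving proteases, at -1.23 ± 0.76 and Mbtps2, the second, at -0.18 ± 0.27. Insig2, the paralog of Insig1, was at -0.11 ± 0.27 (limma adjusted p = 0.913).

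In lipoprotein uptake and intracellular sterol transport 1 of 6 tested genes passed, beside 1.39% of all genes, with a median of 0.26. Vldlr, a receptor for triglyceride-rich lipoproteins, had log2 signals of 14.68, 14.19 and 14.08 on young replicates 1, 2 and 3 and 15.29, 15.69 and 16.08 on aged replicates 51, 52 and 53. The groups did not overlap, as for 7.41% of tested probe sets in that direction, and all 6 tested Vldlr probe sets had a positive change, with a change of 1.37 ± 0.25 (limma adjusted p = 0.0197), 1 of them past the test. The Vldlr call was lost without young replicate 2 (adjusted p = 0.133), young replicate 3 (adjusted p = 0.118) or aged replicate 52 (adjusted p = 0.0926), and within the first station the limma change was 0.97 (adjusted p = 0.135). Mylip, a ligase that degrades lipoprotein receptors, was at 0.96 ± 0.28 (limma adjusted p = 0.193) and Scarb1, a receptor for high-density lipoprotein, at -0.62 ± 0.29. The other of the 2 tested Scarb1 probe sets was at -2.43, and 0 of the 2 passed.

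Of 6 tested genes of sterol efflux and the LXR response 0 passed limma's test, 1 at an unadjusted p under 0.05, with a median of 0.37, which was close to 0 without young replicate 2 and 0.041 without aged replicate 52. Cyp27a1, a sterol hydroxylase, was at 1.05 ± 0.57, the phospholipid transfer protein Pltp at 0.66 ± 0.29, and the sterol exporter Abcg1 at -0.61 ± 0.43. In the isoprenoid branches that leave the pathway 0 of 7 passed limma's test, 1 at an unadjusted p under 0.05, with a median of 0.23, which was 0.047 without young replicate 2, 0.073 without aged replicate 52 and 0.054 without aged replicate 53. The greatest changes there were those of Icmt (-0.79 ± 0.78) and Pggt1b (-0.79 ± 0.33), both of protein prenylation, and Dhdds (0.64 ± 0.66), of dolichol synthesis.

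Fatty acid synthesis genes, the targets of SREBP1, rose in part. Of 13 tested genes 5 rose, beside 1.39% of all genes called in either direction. Changes of 12 were positive, with a median over the 13 of 1.87. Gpam had the negative change, at -0.87 ± 0.28 (limma adjusted p = 0.274). Its aged arrays all lay below its young arrays, and 16.2% of all tested probe sets separated in either direction. Leaving out single arrays gave 2 to 6 calls among the 13, fewest without young replicate 2. Fasn, Acly, Thrsp, Elovl6 and Acss2, which makes acetyl-CoA from acetate (1.99 ± 0.38, limma adjusted p = 0.0259), were those that rose; within the first station 2 of the 13 passed, and without the trend 0 did. Acly was called on 2 of its 5 tested probe sets, Elovl6 on 1 of 3, and Thrsp and Acss2 on 1 of 2 each. The lowest changes on a probe set were -0.22 for Elovl6 and -0.005 for Acly. With probe sets averaged, Acly passed (1.63, limma adjusted p = 0.00837). Thrsp (1.69, adjusted p = 0.0725), Elovl6 (1.22, adjusted p = 0.235) and Acss2 (1.58, adjusted p = 0.109) did not. Without probe sets prone to cross-hybridisation Acss2 was at 1.17 (adjusted p = 0.49), and the rest of the 5 passed. The summed adipocyte markers and the RNA quality ratio given beside Insig1 were likewise higher on every aged array. With that ratio as a covariate 2 of the 13 passed, and the part of the markers was not tested. The lists were not tested against each other.

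**Figure D4:**
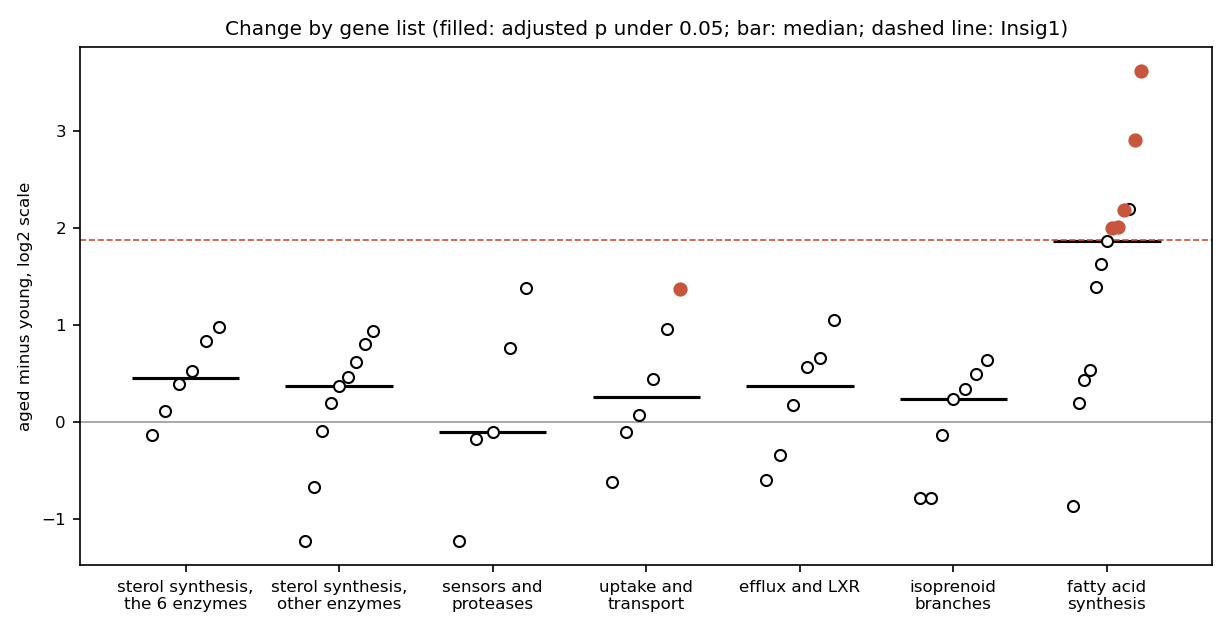
Change from young to aged muscle on the log2 scale for each tested gene of 7 lists, with filled points at an adjusted p under 0.05 and a bar at the median of each list. The medians are 0.45 for the 6 sterol enzymes and 1.87 for fatty acid synthesis, and the dashed line marks Insig1 at 1.87.

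The transcripts whose pattern over the 6 arrays was most like that of Insig1 were not sterol enzymes. By Pearson's r, as a description over 6 arrays that fall into 2 groups, the nearest of 11762 genes were 5031425E22Rik (0.99), Zfp109 (0.99), Rgcc (0.99), Prxl2a (0.98) and Tkt (0.98), the transketolase of the pentose phosphate pathway. Tkt had log2 signals of 14.32, 14.04 and 15.10 on young replicates 1, 2 and 3 and 16.13, 17.58 and 17.16 on aged replicates 51, 52 and 53. As with Insig1, young replicate 2 was the lowest array, young replicate 3 the highest young one and aged replicate 51 the lowest aged one. Tkt was picked by r over these same arrays, so the shared order adds nothing to that r. Among the members Lss ranked 1030 (r = 0.69), Cyp51 2264 (0.50), Fdps 2984 (0.39), Idi1 3229 (0.35) and Sqle 3806 (0.28). Hmgcs1 ranked 6867 (-0.14) and Srebf2 10248 (-0.60). The points share arrays and scaling, and r takes in the difference between the groups.

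Markers of other cell types also moved between the groups, and each count of calls here stands beside 1.39% of all genes called in either direction. Of 7 tested adipocyte markers on a list of 11, 3 rose (Adipoq, Retn and Fabp4) and 7 had a positive change, with a median of 1.63. Leaving out single arrays gave 1 to 3 calls among the 7, fewest without young replicate 2, and with the station as a covariate 0 passed. Fabp4 passed on 1 of its 4 tested probe sets, and with these averaged its change was 0.61 (limma adjusted p = 0.372). Of 3 tested Schwann cell markers 2 fell (Mbp and Pmp22), with summed log2 signals of 15.4 to 16.3 and 13.1 to 13.5. Of 5 hepatocyte markers 2 were bright enough to test and 0 passed, with sums of 10.3 to 11.5 and 11.3 to 12.3. Summed macrophage markers (0 of 4 called) overlapped, at 15.7 to 16.1 and 15.9 to 16.6, and so did blood markers, none tested, at 9.48 to 10.5 and 9.72 to 11.1. Of 5 tested fibroblast markers 1 fell, Col1a1, and the sums were 18.2 to 19.2 and 15.7 to 16.0, or 16.2 to 16.5 and 15.5 to 15.8 without Col1a1. No marker was at 0, since these arrays give every probe set a signal. The part of these cells in the values of the genes described here was not tested.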

How the data were processed

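Labelled muscle RNA was hybridised to 6 arrays, 3 per group; whether they hold separate animals is not stated. The deposited values are linear intensities per probe set, made by the authors with MAS5 per the submitters' processing notes; no version or setting is recorded there. Each deposited array has a mean of 1500 after trimming 2% at each end. Intensities were taken to log2 as deposited, without 64 control probe sets, and compared with limma 3.58.1 in R 4.3.3 (lmFit, eBayes with a trend, two-sided, Benjamini-Hochberg over all 22519 tested probe sets, threshold 0.05). The filter keeps probe sets with a mean log2 signal of at least 9.08. Differences from Insig1 used the same fit, and exact permutation tests ran over arrays. Gene names come from the platform annotation, with symbols checked against RefSeq (GRCm38.p6). The fit was tested on simulated data. Named are all 8 genes, and in the pathway lists genes past the test and up to 4 with the greatest change. Beside these are Insig2, as the paralog of Insig1, and Gpam, as the only negative change of its list. The members and lists were chosen with earlier results of these data known. Alternatives were quantile normalization, median centring, other filters, a pseudocount of 219, station or RNA quality as a covariate, other moderation, other probe set rules and each array left out; an unmoderated model was added after seeing the data.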

Additional observations from a re-analysis of the deposited data

How the results depend on the processing

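The direction of Insig1 held in every alternative run, at 1.44 to 2.25, and its call did not. With the station as a covariate it was 1.44 (adjusted p = 0.207), on the first station alone 1.44, with the RNA quality ratio as a covariate 1.71, after median centring 1.75, without the trend 1.87 and in the unmoderated model 1.87 (adjusted p = 0.422); in each of these 6 settings 0 of the 8 genes passed. With 1 array left out Insig1 was at 1.55 to 2.25 and 0 to 1 of the 8 genes passed. Of the other sterol pathway genes 0 passed in the first 5 of those settings, with the probe sets of a gene averaged and without probe sets prone to cross-hybridisation, and 0 to 1 with 1 array left out. The genes differing from Insig1 numbered 4 after quantile normalization and with a pseudocount, 1 with no filter and without cross-hybridising probe sets, 0 with either setting for the station, with the RNA quality ratio and in the unmoderated model, and 1 to 4 with 1 array left out. The median of the 6 enzymes was 0.77 with the RNA quality ratio, and 0.29 to 0.60 with 1 array left out. All tested probe sets called were 365 on the first station, 138 with the RNA quality ratio, 21 without the trend, 136 without cross-hybridising probe sets and 124 to 342 with 1 array left out. Signs turned, all without a call, for Hmgcs1 (0.056, quantile normalization), Fdps (-0.015 after quantile normalization, -0.0097 after median centring, -0.24 with either setting for the station, -0.67 to 0.52 with 1 array left out), Srebf2 (0.44 with either setting for the station, -0.68 to 0.048 with 1 array left out) and Mvk (0.62 with either setting for the station). The cause was not tested. No paired analysis was possible because the groups share no replicate numbers. Standard errors of 0.71 for Srebf2 and 0.74 for Fdps, beside a median of 0.56 over all tested probe sets, limit what could be seen for these genes.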
